A study of Mus musculus with 21 samples.

Results

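Mt1 and Mt2 are neighbouring mouse genes for metallothioneins, and the glucocorticoid receptor (GR) was mapped around them in liver by chromatin immunoprecipitation and sequencing (ChIP-seq). Overlapping peaks of the 18 GR libraries were merged into 7398 sites, and a site was kept when the nearest protein-coding gene, measured from the site's centre and within 50 kb, was Mt1 or Mt2. This left 2 sites, 1 for each gene. The Mt2 upstream site had a peak in 12 of 18 libraries and the Mt1 promoter site in 14 of 18, and both had a peak in each of the 9 libraries from mice given the synthetic glucocorticoid dexamethasone (DEX).

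Metallothioneins are small cysteine-rich proteins that bind zinc and copper, buffer free zinc in the cell and trap toxic metals such as cadmium. In liver, Mt1 and Mt2 are induced by metals through the zinc-sensing factor MTF1, which binds metal response elements in their promoters, and by glucocorticoids. GR is a nuclear receptor that enters the nucleus on binding its hormone and contacts DNA at glucocorticoid response elements, and such elements upstream of Mt2 are known to serve both genes.

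The study asked how low oxygen alters GR binding in the liver. All mice were C57BL/6J with no transgene or mutant allele named, and sex and age are not given in the sources used here. Mice breathed normal air (normoxia, 21% oxygen) or 7% oxygen for 6 h or 24 h, then received DEX at 10 mg/kg into the peritoneum or phosphate-buffered saline (PBS) and were sampled 2 h later, the hypoxic mice having gone back to 7% oxygen. The 6 groups were normoxia DEX, normoxia PBS, 6 h hypoxia DEX, 6 h hypoxia PBS, 24 h hypoxia DEX and 24 h hypoxia PBS, each with 3 libraries that the submitters call biological replicates. PBS mice were injected too and kept their own corticosterone, so the comparison is of added hormone against none added and not of hormone against its absence. The tissue is whole liver, so binding is summed over all of its cell types, and a ChIP-seq peak list holds no RNA level with which to check the tissue label.

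Depth ran from 5772670 to 16500568 tags (sequenced fragments placed on the genome) in 17 libraries and reached 43645787 in normoxia PBS replicate 1, whose peaks were also 280 bp wide against 178 to 196 bp in the others. Peak number ran from 78 to 3915 per library. The library labelled 6 h hypoxia PBS replicate 2 stood apart from the other PBS libraries: at the 62 sites called in all 18 libraries it was at or above the lowest DEX library at 55 sites, which is 88.7%, and its median there was 375 normalized tags, against 46.9 to 235 in the other PBS libraries and 287 to 545 in the DEX libraries. Some results that rest on these libraries are also given without 1 or both of them, and some others are only marked as including them.

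The Mt2 upstream site spans chr8:94171396-94171654 (mm10, 258 bp). It lies in no protein-coding gene. Per the file headers each peak was centred on its tag maximum. The centres of its 12 peaks fell within 75 bp of one another, 1057 to 1132 bp upstream of the Mt2 start site, and the site lies at the start of the annotated span of the long non-coding RNA Gm39227, which is read away from Mt2. The Mt1 promoter site spans chr8:94178865-94179145 (280 bp), and the centres of its 14 peaks fell within 40 bp, 58 to 98 bp upstream of the Mt1 start site in the RefSeq promoter table. The annotated Mt1 span begins 206 bp before that start, so the site's centre counts as inside the gene. Distances are to that 1 tabulated start, and which start the liver uses was not examined. The 2 site centres are 7480 bp apart, and the Mt2 upstream site lies 7564 bp from the Mt1 start.

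The promoter sequences are shown with their matches to the patterns of the elements that the metal and hormone pathways read. They are the 250 bases before each start in RefSeq (GRCm38.p6, plus strand), at chr8:94172368-94172617 for Mt2 and chr8:94178839-94179088 for Mt1. In both, 7-base capitals mark matches to the metal response element core TGCNCNC on either strand. In Mt1, the 13-base capitals mark the match to the glucocorticoid response element pattern, GNACA, any 3 bases, TGTNC. The Mt2 stretch held 0 matches to this pattern.
Mt2: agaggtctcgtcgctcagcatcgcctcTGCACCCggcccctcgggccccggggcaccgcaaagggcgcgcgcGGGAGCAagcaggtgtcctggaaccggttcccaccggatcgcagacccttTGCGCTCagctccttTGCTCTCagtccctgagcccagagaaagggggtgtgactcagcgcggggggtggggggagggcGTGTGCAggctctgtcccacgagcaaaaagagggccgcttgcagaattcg
Mt1: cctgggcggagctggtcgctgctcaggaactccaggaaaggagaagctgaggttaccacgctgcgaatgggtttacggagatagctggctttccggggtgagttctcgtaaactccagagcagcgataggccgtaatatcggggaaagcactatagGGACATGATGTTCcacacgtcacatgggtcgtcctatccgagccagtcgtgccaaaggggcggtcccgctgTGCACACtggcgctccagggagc

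The 13-base match in the Mt1 promoter, GGACATGATGTTC, lies at chr8:94178995-94179007, 82 to 94 bp upstream of the start, and no motif overlaps it. All 14 peaks of the Mt1 promoter site held it whole. Measured from the middle of the match, the peak centres ranged from -10 to 30 bp with a median of 0 bp, and 13 of 14 lay within 10 bp. The exception was normoxia PBS replicate 3, at 30 bp. The pattern occurs in 0.387% of the 32851 RefSeq promoter windows of this length, in 127 windows. Among the 49 windows that overlapped a site called in all 9 DEX libraries, 8 held it, which is 16.3%. A match describes the letters and does not show a contact of the receptor.

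**Figure D1:**
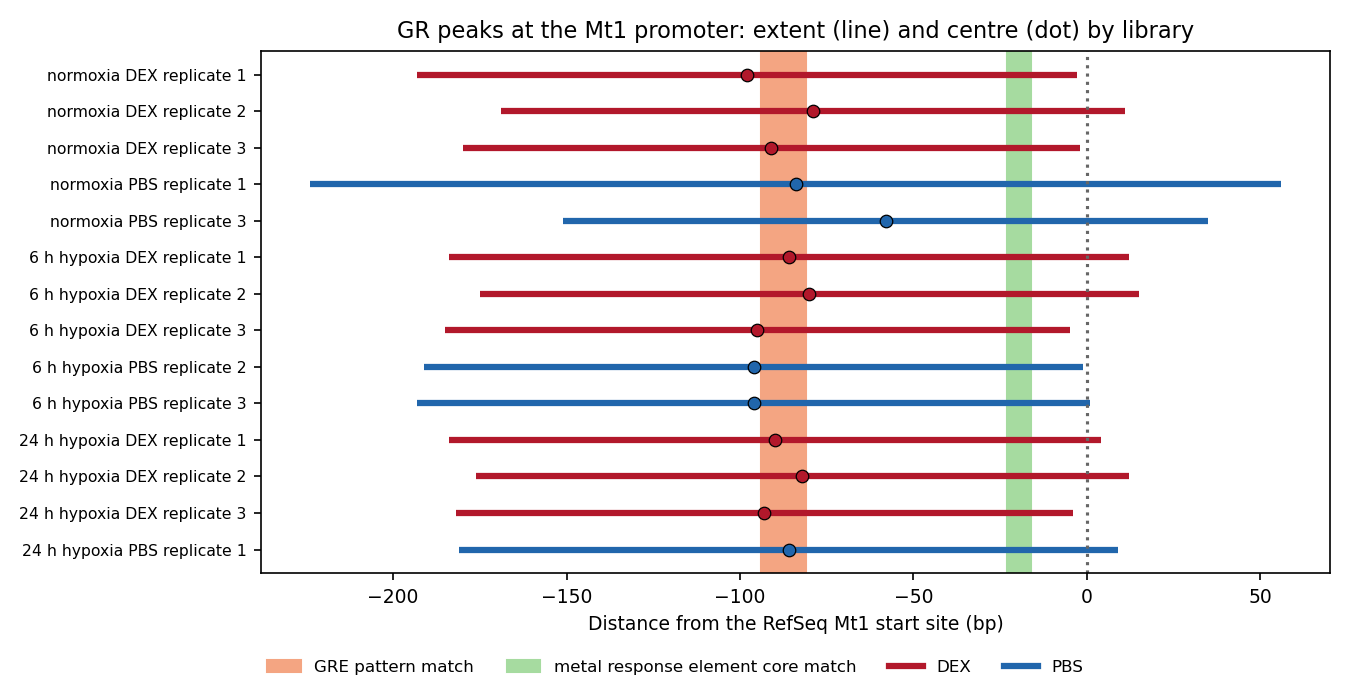
Extent (line) and centre (dot) of each library's GR peak at the Mt1 promoter, against distance from the RefSeq Mt1 start site in bp, with 9 DEX libraries in red and 5 PBS libraries in blue. The orange band is the glucocorticoid response element match and the green band the metal response element core match, and 13 of 14 centres lie within 10 bp of the middle of the orange band.

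The 250-base stretches before the 2 tabulated starts held different numbers of metal response element cores. The 250 bases before Mt2 held 5 matches, at 44 to 223 bp upstream, 3 of them on the plus strand and 2 on the minus strand. Only 0.344% of all windows held 5 or more. The same stretch of Mt1 held 1 match, at 17 to 23 bp upstream, and 44.4% of windows held at least 1. With the 50 bases after the start included, the counts were 6 and 3, and 7.10% of windows held 3 or more. The Mt1 count thus depends on where the tabulated start falls, and sequence further downstream was not searched. All 14 peaks at the Mt1 promoter covered its core match, whereas the 5 cores of Mt2 lay outside the Mt2 upstream site, which ends before the Mt2 window begins. Neither 250-base stretch held the single-arm receptor element AGAACA on either strand, which 16.1% of windows held. The 258 bp of the Mt2 upstream site itself could not be searched, because apart from 49 bp that fall in the promoter window of Gm39227 its sequence was not used here, and those 49 bp held none of the motifs.

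**Figure D2:**
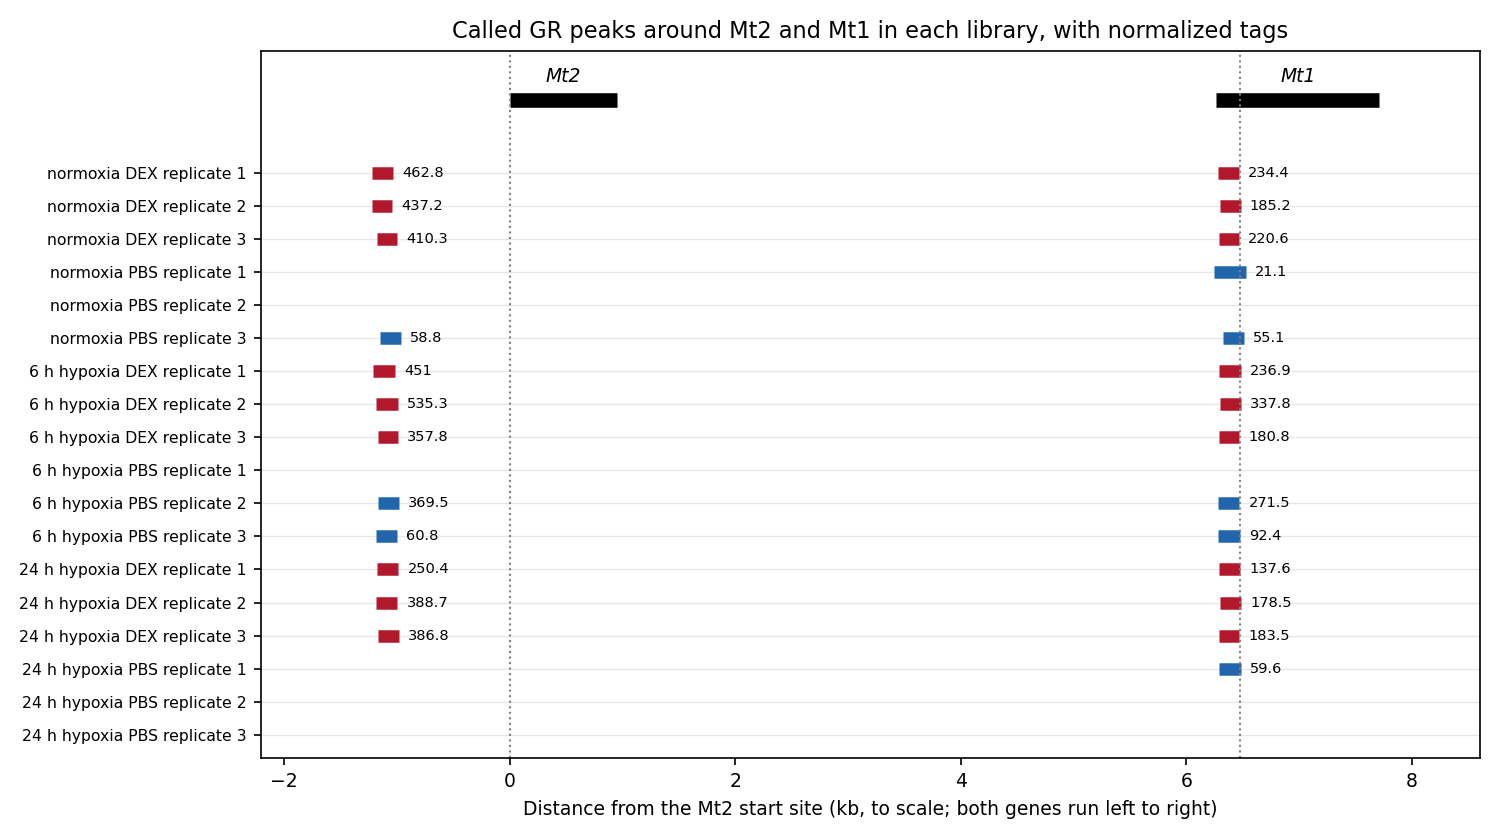
Called GR peaks in each of the 18 libraries against distance in kb from the Mt2 start site, drawn to scale, with the spans of Mt2 and Mt1 above and the normalized tag count beside each peak. Red is DEX and blue PBS, and every DEX library has both peaks.

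With DEX, both sites were occupied in all 3 libraries at each oxygen level. Heights are normalized tag counts, the tags in a peak per 10000000 tags of its library. At the Mt2 upstream site, normoxia DEX had 462.8, 437.2 and 410.3 normalized tags, 6 h hypoxia DEX had 451.0, 535.3 and 357.8, and 24 h hypoxia DEX had 250.4, 388.7 and 386.8. The group means were 437 ± 26.3, 448 ± 88.8 and 342 ± 79.3 (SD, n = 3 each), and the 3 groups overlapped except that all 3 normoxia libraries lay above all 3 libraries of 24 h hypoxia. At the Mt1 promoter site, normoxia DEX had 234.4, 185.2 and 220.6 normalized tags, 6 h hypoxia DEX had 236.9, 337.8 and 180.8, and 24 h hypoxia DEX had 137.6, 178.5 and 183.5. The means were 213 ± 25.4, 252 ± 79.6 and 167 ± 25.2 (SD, n = 3 each), and again the 24 h libraries all lay below the normoxia libraries.

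Over the 9 DEX libraries the Mt2 upstream site averaged 409 ± 79.1 normalized tags and the Mt1 promoter site 211 ± 57.2 (SD, n = 9). By this mean they ranked 67 and 237 of the 935 sites that every DEX library called. Each value rests on 293 to 613 tags at the Mt2 site and 158 to 310 at the Mt1 site, so that counting error alone gave normoxia DEX replicate 1 a 95% Poisson interval of 429 to 503 at the Mt2 site. The authors' fold over input was 99.9 to 392 at the Mt2 site and 54.9 to 371 at the Mt1 site, where input contributed 0.5 to 3.9 tags.

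With PBS the sites were detected in fewer libraries and mostly low. The Mt2 upstream site was called in normoxia PBS replicate 3 with 58.8 normalized tags, in 6 h hypoxia PBS replicate 2 with 369.5 and in replicate 3 with 60.8, and in no library of 24 h hypoxia PBS. The Mt1 promoter site was called in normoxia PBS replicates 1 and 3 with 21.1 and 55.1 normalized tags, in 6 h hypoxia PBS replicates 2 and 3 with 271.5 and 92.4, and in 24 h hypoxia PBS replicate 1 with 59.6. In each site, 6 h hypoxia PBS replicate 2 was the sole PBS library inside the range of the DEX libraries. A site that was not called may still hold tags. They may lie below the minimum score of 50 (tags counted at most once per base in 17 libraries). They may also have missed the limits over input or local background. A score of 50 corresponds to 11.5 normalized tags in the deepest PBS library and 57.7 in the shallowest. Listed tags can fall below it, with a lowest value of 9.85 normalized tags in the deepest PBS library. Of the called PBS peaks, that of 24 h hypoxia PBS replicate 1 at the Mt1 site was the nearest to the minimum, with 60 tags, and the others held 91 to 328.

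**Figure D3:**
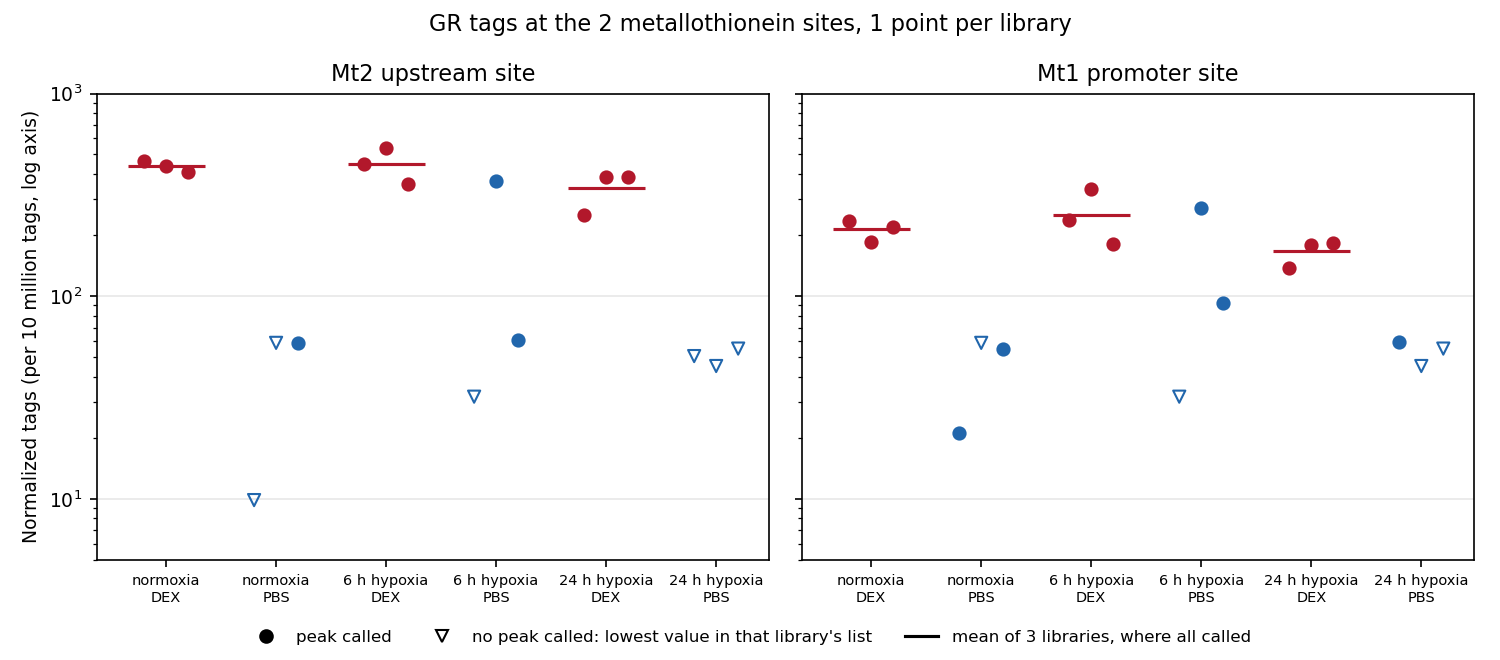
Normalized GR tags (per 10000000 tags, log axis) at the Mt2 upstream site and the Mt1 promoter site, 1 point per library in 6 groups of 3. Filled points are called peaks, open triangles are libraries without a call drawn at the lowest value in their list, and bars are group means where all 3 libraries were called. The DEX points lie from 250 to 535 at the Mt2 site and from 138 to 338 at the Mt1 site.

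Detection was compared between DEX and PBS within each oxygen level by an exact Cochran-Mantel-Haenszel test, two-sided, adjusted by Benjamini-Hochberg over the 2563 sites called in 3 or more libraries. The Mt2 upstream site was called in 9 of 9 DEX and 3 of 9 PBS libraries, a difference in share of 0.667 (exact p = 0.01, adjusted p = 0.0216). With the replicate number as a block in the same test, it did not pass (exact p = 0.03125, adjusted p = 0.0657). Each of these exact p-values is the smallest that the number of calls at this site allows in its test. The Mt1 promoter site was called in 9 of 9 and 5 of 9, a difference of 0.444 that did not pass (exact p = 0.1, adjusted p = 0.131). Of all sites tested, 55.3% were called more often with DEX and 0.039% less often, so that 1 of 2 metallothionein sites is near the background. The Mt1 result changed with the calling threshold and with 1 library: when a peak needed 86.6 normalized tags in every library, the value of 50 tags in the shallowest one, the shares differed by 0.778 and the adjusted p was 0.0066, and without 24 h hypoxia PBS replicate 1 alone it was 0.0437. Leaving out both normoxia PBS replicate 1 and 6 h hypoxia PBS replicate 2, a choice made after seeing the data, gave an adjusted p of 0.0203 at the Mt2 site and 0.0541 at the Mt1 site.

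Tags rose with DEX at both sites. Libraries without a call were given the lowest value in their own list, and log2 tags were compared by an exact permutation test that shuffled DEX and PBS within each oxygen level. The Mt2 upstream site was higher by 2.93 on the log2 scale, a 7.63-fold difference (exact permutation p = 0.0005), and the Mt1 promoter site by 1.80, a 3.49-fold difference (exact permutation p = 0.00075), where the smallest p these 8000 arrangements allow is 0.00025. The assigned values make these folds approximate. Within single oxygen levels, every DEX library lay above every PBS library in normoxia and at 24 h at both sites (exact permutation p = 0.1 in each, the smallest that 3 against 3 allows), but not at 6 h (p = 0.2 at the Mt2 site and 0.3 at the Mt1 site, both exact), where PBS replicate 2 lay among the DEX libraries. Without that library and normoxia PBS replicate 1 the differences were 2.99 and 1.91 on the log2 scale.

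Relative to other sites called with DEX, the 2 metallothionein sites gave different values. In a limma fit to the 1044 sites called in at least 9 of 18 libraries, with the same assigned values, 97.1% of sites were higher with DEX and 0.766% lower, with a median difference of 1.57 on the log2 scale, and both metallothionein sites were among those higher. Most of these sites, the metallothionein sites included, met the filter through the DEX libraries, so this share is set in large part by the filter and supports nothing on its own. When each library was centred on its own median site, the median difference over sites became -0.17. In PBS libraries with 78 to 343 peaks, most of the 1044 sites held the assigned value, so the median site was that value. A site uncalled there was thus placed at the median. Centred differences therefore rest in large part on the filter and on height in the DEX libraries. They are no separate test of DEX. After centring, the Mt2 upstream site was higher with DEX by 1.19 ± 0.22 (SE) on the log2 scale (limma adjusted p = 0.000227), as were 20.3% of the sites, while 40.9% were lower. On the same scale the Mt1 promoter site differed between DEX and PBS by 0.06 ± 0.20 (SE, 95% interval -0.36 to 0.48, limma adjusted p = 0.811). Leaving out each library in turn kept the centred value of the Mt2 site between 1.01 and 1.37, past the threshold in all 18 fits, and that of the Mt1 site between -0.12 and 0.16, past it in none. By oxygen level the centred Mt2 difference was 1.33 ± 0.38 in normoxia (adjusted p = 0.0104), 0.67 ± 0.38 at 6 h (adjusted p = 0.202) and 1.57 ± 0.38 at 24 h (adjusted p = 0.00441, all limma). The 6 h value includes 6 h hypoxia PBS replicate 2. In normoxia 1 of 3 PBS libraries called the Mt2 site, and at 24 h 0 of 3 did. The 24 h value is therefore the height of the site above the median site in the DEX libraries, and its p is no test of DEX.

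The 2 sites were also compared directly, inside single libraries. In the 9 DEX libraries the Mt2 upstream site held 1.58 to 2.36 times the tags of the Mt1 promoter site. In the 3 PBS libraries that called both, the ratio was 1.07 in normoxia replicate 3, 1.36 in 6 h hypoxia replicate 2 and 0.658 in 6 h hypoxia replicate 3, all below the lowest DEX library. The 6 h hypoxia PBS replicate 2 library, which resembled DEX libraries in tags, thus had a ratio under theirs, with a 95% counting interval of 1.15 to 1.61 that reaches into the DEX range. The mean log2 ratio was 0.97 ± 0.17 with DEX (SD, n = 9) and -0.02 ± 0.53 with PBS (SD, n = 3), a difference of 0.99 (exact permutation p = 0.025, the smallest of the 40 arrangements within oxygen levels). Without 6 h hypoxia PBS replicate 2 it was 1.23 (exact permutation p = 0.0625, the smallest of 16). This ratio was chosen after its values were seen, and PBS libraries that did not call both sites give none.

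**Figure D4:**
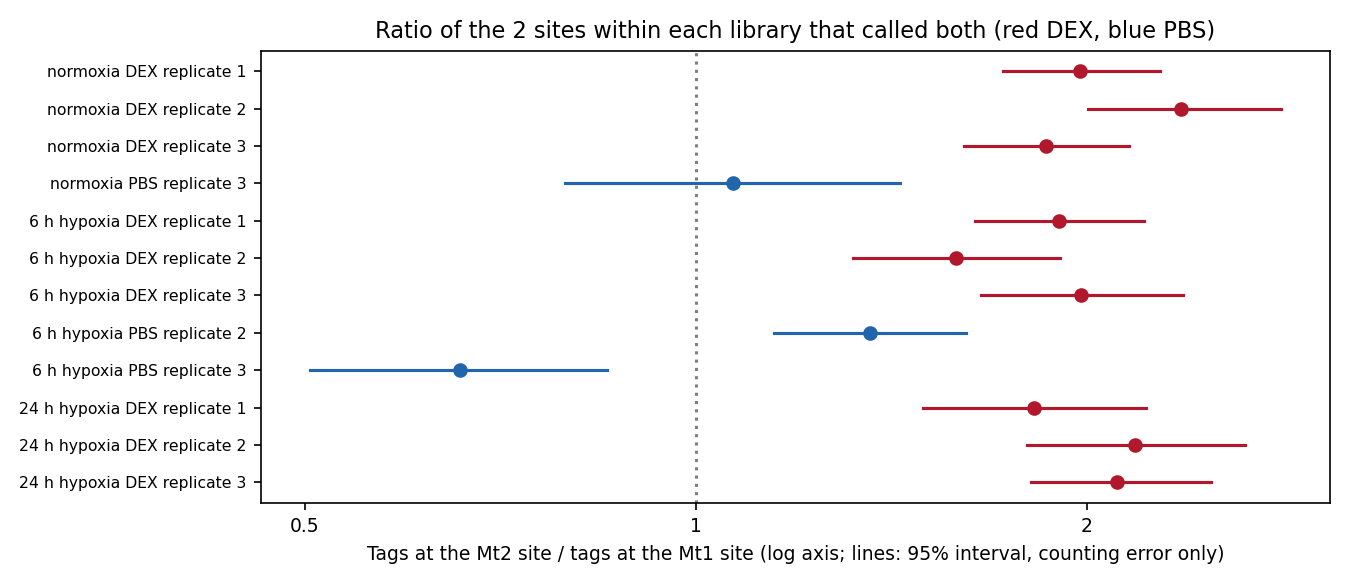
Tags at the Mt2 upstream site divided by tags at the Mt1 promoter site in each of the 12 libraries that called both (log axis), with 95% intervals that cover counting error only. The 9 DEX libraries (red) lie between 1.58 and 2.36 and the 3 PBS libraries (blue) between 0.658 and 1.36.

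In the tests below, hypoxia changed neither site past the threshold. With DEX, both sites were called in 6 of 6 hypoxia and 3 of 3 normoxia libraries, so a test of detection could show no difference there. With PBS, the Mt2 site was called in 2 of 6 and 1 of 3, and the Mt1 site in 3 of 6 and 2 of 3 (Fisher's exact test, two-sided, p = 1 for both). No site passed this test, 0% of 2938 sites with DEX and 0% of 632 with PBS, although 260 and 3 had an unadjusted p under 0.05. With 6 against 3 libraries, its smallest possible p is too large to pass the adjustment unless a large share of sites reach it. The test therefore could not decide whether hypoxia changed detection.

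For tags, limma was fitted to the 935 sites called in all 9 DEX libraries, each library centred on its median site. Hypoxia, 6 h and 24 h together, differed from normoxia by -0.03 ± 0.12 (SE) on the log2 scale at the Mt2 upstream site (95% interval -0.28 to 0.22, limma adjusted p = 0.916) and by 0.07 ± 0.13 at the Mt1 promoter site (95% interval -0.20 to 0.34, limma adjusted p = 0.823). Of all sites, 3.1% were higher and 2.03% lower. At 6 h the differences from normoxia were 0.03 at the Mt2 site and 0.21 at the Mt1 site, and at 24 h they were -0.09 and -0.08. From 6 h to 24 h the Mt1 site differed by -0.29 ± 0.15 (95% interval -0.60 to 0.03, limma adjusted p = 0.335) and the Mt2 site by -0.13 ± 0.14 (limma adjusted p = 0.666), while 0.107% of sites were higher at 24 h and 1.28% lower. Without centring the median site moved from 0.05 to -0.10, and the hypoxia difference became -0.18 at the Mt2 site and -0.08 at the Mt1 site, so the sign at the Mt1 site depends on the scaling. The centred fit removes a fall shared by most sites, so it does not address the lower 24 h values in the uncentred heights above. Without centring, the median site at 24 h differed from normoxia by -0.22, with 16 of 935 sites lower and 2 higher. The uncentred 24 h differences of the 2 metallothionein sites are not given here. The DEX effect itself did not differ by oxygen past the threshold: against normoxia it was smaller by 1.45 on the log2 scale at the Mt2 site after 6 h (limma adjusted p = 0.665) and by 1.01 after 24 h (adjusted p = 0.345), and by 0.98 and 0.74 at the Mt1 site (adjusted p = 0.665 and 0.444), where 0% and 0.0958% of the 1044 sites differed. The 6 h differences include 6 h hypoxia PBS replicate 2. Without it the median 6 h difference over all sites fitted moved from -0.72 to -0.33. The values of the 2 metallothionein sites without it are not given here. The direction at 24 h depends on the scaling: with libraries centred the differences were -0.66 after 6 h and 0.24 after 24 h at the Mt2 site, and -0.20 and 0.51 at the Mt1 site, none past the threshold. Without normoxia PBS replicate 1 the uncentred differences at 24 h were -0.15 at the Mt2 site and -0.26 at the Mt1 site, and without normoxia PBS replicate 2 they were -1.44 (limma adjusted p = 0.0733) and -0.997 (limma adjusted p = 0.194), in a fit that called 550 of 1043 sites lower.

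**Figure D5:**
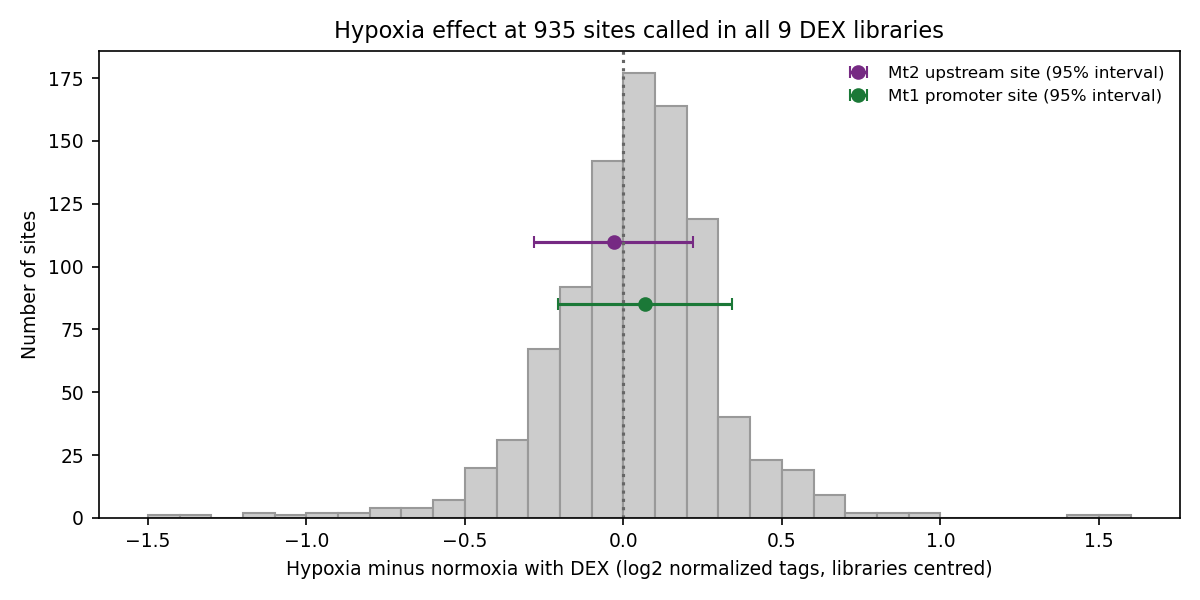
Number of sites by hypoxia minus normoxia difference with DEX (log2 normalized tags, libraries centred) for the 935 sites called in all 9 DEX libraries, with the Mt2 upstream site (purple) and the Mt1 promoter site (green) as points with 95% intervals, placed at arbitrary heights. Both intervals include 0.

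Sites called in as many libraries were few: 4.79% of the 7398 sites were called in 12 or more libraries and 2.93% in 14 or more. Of the 935 sites in all 9 DEX libraries, 93 had 3 PBS libraries, as the Mt2 site did, and 49 had 5, as the Mt1 site did, against 209 with 0 and 230 with 1. Exactly the 12 libraries of the Mt2 upstream site called 11 other sites, and exactly the 14 of the Mt1 promoter site called 24 others. Over the 14 libraries of the Mt1 site, tags across 178 sites called in all of them correlated with its tags with a median Pearson r of 0.939. The closest were a pair of sites near Anapc16, a subunit of the anaphase-promoting complex (r = 0.976 and 0.973), and sites nearest to the kinase genes Mast3 (r = 0.975) and Mapk13 (r = 0.973) and, at 51431 bp, to Cdkn2aipnl (r = 0.972). Without normoxia PBS replicate 1 these 5 values were 0.945 to 0.952. Over the 12 libraries that called both metallothionein sites, r between them was 0.920. These are descriptions over libraries that share depth and DEX, and no p is given.

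The neighbourhood held few other sites. Mt3, the brain metallothionein, and Mt4, that of stratified epithelium, lie on the Mt2 side of the cluster and had no site in any library, nor did Nup93 beyond Mt1. Within 100 kb of the cluster the sole further site was 1 at Bbs2, called in normoxia PBS replicate 1 alone at 12.6 normalized tags.

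Other genes of metal handling were taken from a list of 36, comprising Mt3, Mt4, MTF1, zinc and copper transporters and copper-binding proteins. The list was made with earlier results of these data known. Of these genes 12 had a site, 16 sites in all, and 5 sites could be tested. Of the 5, 4 were called more often with DEX and 0 less often, with a median difference in share of 0.667 against 0.556 over all sites tested and a background of 55.3%. They lay at Slc39a14, a zinc and manganese importer (9 DEX and 1 PBS libraries, adjusted p = 0.00438), Atox1, a copper chaperone (9 and 1, adjusted p = 0.00438), Atp7b, the copper exporter of hepatocytes (6 and 0, adjusted p = 0.0216), and Sod1, the copper-zinc superoxide dismutase (6 and 0, adjusted p = 0.0216, all by the exact test above). These 4 sites met the limit of 3 libraries through DEX libraries, so the limit set their direction in large part. The background was counted under the same limit, and the count of 4 supports nothing on its own. The fifth, also in Slc39a14, was called in all 18 libraries, with 353 ± 51.3 normalized tags in DEX and 113 ± 74.2 in PBS libraries (SD, n = 9 each). Mtf1, which encodes the metal sensor, and Slc30a1, a zinc exporter gene that it induces, were singled out after their values were seen. Each had 1 site, called in normoxia PBS replicate 1 alone with 13.7 and 12.1 normalized tags. Of the 10 sites called in a single library, 9 came from that library. Counts of sites called more often with DEX fell from 4 to 2 with the common threshold of 86.6 normalized tags, to 2 when both normoxia PBS replicate 1 and 6 h hypoxia PBS replicate 2 were left out, and to 1 when a peak score of 100 was required.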

How the data were processed

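Liver ChIP-seq of GR in 18 libraries was analysed from peak lists made by the authors, 1 per library, and 3 input libraries were not analysed here. Per the submitters' processing notes, reads were handled with Trimmomatic, BWA 0.7.17, SAMtools 1.10 and HOMER on mm10. Per the file headers, HOMER findPeaks kept peaks at least 4 times above input and above local background, with Poisson p under 0.0001 and at least 50 tags. The deposited signal is a tag count scaled to 10000000 tags. The deposited lists also hold unscaled tag counts, a score with a minimum of 50, fold ratios over input and local background, and a focus ratio (a fraction). In 2 normoxia PBS lists the tag column was scaled differently per the file headers, and counts there were recovered from the normalized tags and depth.

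Peaks overlapping by 1 bp were merged and assigned to 21900 RefSeq protein-coding genes (GRCm38.p6). Detection was tested with Python 3.11.15 and scipy 1.17.1, and tags with limma 3.58.1 and edgeR 4.0.16 in R 4.3.3, adjusted over all sites tested. The planned fit to sites called in all 18 libraries could not hold these sites, so the version with assigned values was used. Code was tested on simulated data. Sites near Mt1 and Mt2 were named by the assignment rule, genes of the metal list when a site was called in at least 3 libraries, coding neighbours within 100 kb, and the 5 sites whose log2 tags correlated best with the Mt1 site. Members and lists were chosen with earlier results of these data known. Same-numbered libraries were not treated as pairs, because not every such pair's deviations from the group means correlated above 0.1. Poisson, binomial and ratio intervals cover counting error only, and limma intervals cover the spread between libraries. Other overlap limits, scores, floors, pseudocounts, scalings, windows and left-out libraries were tried.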

Additional observations from a re-analysis of the deposited data

How the results depend on the processing

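The number of metallothionein sites was 2 under each alternative run. Detection at the Mt2 upstream site stayed past the threshold except with the replicate number as a block, where the share difference was 0.667 with an adjusted p of 0.0657 (exact test). At the Mt1 promoter site it passed with a common threshold of 86.6 normalized tags (0.778), with a score of at least 100 (0.778), and without 24 h hypoxia PBS replicate 1 (0.50), and single libraries left out gave 0.375 to 0.50. Tags with DEX passed under each permutation alternative at both sites, with 1.62 to 2.08 on the log2 scale at the Mt1 site and 2.63 to 3.28 at the Mt2 site when libraries were left out in turn, and with exact permutation p = 0.0039 at both under the block, although the numbers did not meet the rule for pairs (same-numbered correlations -0.59 to 0.52 over the 62 sites in all libraries). Over the 935 sites in the DEX libraries same-numbered pairs ran from 0.0060 to 0.506, with a median of 0.232 against -0.139 for other pairs, a hint from the data of some shared variation. Centring reduced the Mt1 difference to 0.061, and its centred values with a library left out ran from -0.124 to 0.158. The hypoxia difference with DEX changed sign without passing the threshold in several settings: at the Mt2 site it was 0.033 at 6 h alone and 0.0017 with assigned values at sites in at least 5 of 9 libraries, and -0.066 to 0.0099 with libraries left out. At the Mt1 site it was -0.076 at 24 h alone, -0.082 without centring, -0.0045 with edgeR on tag counts (chosen after seeing the data, as were the centred fits with a library left out), and -0.042 to 0.142 with libraries left out. With PBS, the hypoxia difference in detection at the Mt1 site was 0.333 under the common threshold against -0.167. Sites called higher with hypoxia numbered 29 and lower 19, against 2 and 9 without centring, 20 and 35 with edgeR, 43 and 31 with the block, and 15 to 41 and 8 to 24 with a library left out, fewest without normoxia DEX replicate 2. Sites called more often with DEX numbered 1418, against 757 with the common threshold, 476 with a score of at least 100 and 921 with the block, which counted 2 metal handling sites against 4. Depth limits the PBS values: a call needed a score of 50, besides the limits over input and local background. Where a value changed, the cause was not tested.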
